A study of Mus musculus with 8 samples.

Results

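Interferon-stimulated antiviral effector genes were followed by RNA sequencing in the retina of rd10 mice, whose Pde6b mutation makes rod and then cone photoreceptors degenerate. The set holds 39 genes chosen by symbol, and each symbol was found once among the 54532 genes of the deposited tables. All 39 passed the low-count filter, as did 17725 genes in all. Library totals ran from 14640235 to 16989737 counts, and a member had 6 to 5416 counts in a library. The labels name 4 libraries of rd10 retina as sIVs, numbered 2 to 5, which the series title gives as small intracellular vesicles. The 4 control libraries of rd10 retina are named PBS, numbered 1 to 4; the labels call this the control group. All 8 libraries therefore carry the rd10 background, and no library of healthy retina was analysed here. The sources used here do not give age, sex, vesicle source, dose, route or sampling time. They also do not say whether a library is 1 animal, so p-values measure only how far these libraries spread, which may be technical.

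Interferons are secreted proteins that bind receptors on neighbouring cells, where the kinases JAK1 and TYK2 activate STAT proteins. With IRF9 these form a transcription factor complex that binds a promoter sequence called the interferon-stimulated response element. The genes it switches on encode sensors of foreign RNA and DNA, enzymes that block viral RNA and protein synthesis, and membrane proteins that stop viral entry or release. In retina, microglia, Müller glia and endothelium can all mount this response, and it also occurs without infection.

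The response element is not independent of the choice by name, since the members were picked as interferon-stimulated genes. Its core letters, GAAA followed by any 2 bases and GAAA again, were searched on either strand in RefSeq promoter windows (GRCm38.p6) of 300 bases, 250 before and 50 after each start site. Of the 39 members, 30 had a window, and 14 of these (46.7%) held the letters, against 441 of 12140 tested genes with a window (3.63%). Bst2, Oas1a, Trim21 and Isg15 held overlapping copies. The second motif, TTCNNNGAA, is a core sequence bound by STAT dimers. It was in 8 of the 30 members (26.7%) and in 8.28% of tested genes with a window, and in Bst2 and Ifitm3 it overlapped the first motif.

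The stretches below show these letters in capitals, 5′ to 3′ on the strand of the gene. They cover the members with letters before the start site whose stretch, flanking bases included, overlaps no annotated exon. Isg15, Ifit3 and Rsad2 were due by the naming rule, and the other 5, chosen after their values were seen, complete that set.
Isg15, chr4:156200850-156200921, reverse strand: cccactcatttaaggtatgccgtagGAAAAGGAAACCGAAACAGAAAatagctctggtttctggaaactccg
Ifit3, chr19:34583348-34583441, forward strand: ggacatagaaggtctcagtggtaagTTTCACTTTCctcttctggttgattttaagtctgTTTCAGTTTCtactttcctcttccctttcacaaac
Ifit1, chr19:34640760-34640838, forward strand: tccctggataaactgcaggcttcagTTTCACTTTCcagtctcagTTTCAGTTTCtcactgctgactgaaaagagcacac
Rsad2, chr12:26456538-26456597, reverse strand: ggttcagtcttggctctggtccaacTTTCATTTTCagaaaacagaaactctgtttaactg
Bst2, chr8:71537562-71537627, reverse strand: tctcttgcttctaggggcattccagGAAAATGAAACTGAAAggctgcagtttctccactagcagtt
Oas1a, chr5:120907526-120907570, reverse strand: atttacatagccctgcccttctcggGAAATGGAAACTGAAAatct
Oas3, chr5:120777700-120777759, reverse strand: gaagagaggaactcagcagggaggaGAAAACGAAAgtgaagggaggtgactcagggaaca
Trim30a, chr7:104465195-104465254, reverse strand: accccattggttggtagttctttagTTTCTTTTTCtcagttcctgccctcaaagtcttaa

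In Isg15, 3 copies overlap in 1 run of capitals that begins 78 bases before the start site. Ifit1 and Ifit3, neighbours on chromosome 19, each carry 2 separate copies in the opposite orientation, which begin 104 and 85 bases before the start site in Ifit1 and 156 and 122 before it in Ifit3. Rsad2 carries 1 copy 120 bases upstream. The stretch around the Ifitm2 copy, flanking bases included, overlaps an annotated exon and is not shown. Ddx58, Eif2ak2, Ifih1, Ifitm3 and Trim21 hold the letters only after the start site. Members with the letters had a median log2 fold change of 1.46 (14 genes, 0.56 to 2.69) and those without 1.22 (16 genes, 0.17 to 2.95), so the 2 ranges overlapped over most of their length. Windows for Dhx58, Ifi27, Mx2, Oas2, Parp14, Parp9, Rtp4, Usp18 and Zbp1 were not used here. The plot of letters by distance from the start site gives every match.

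**Figure D1:**
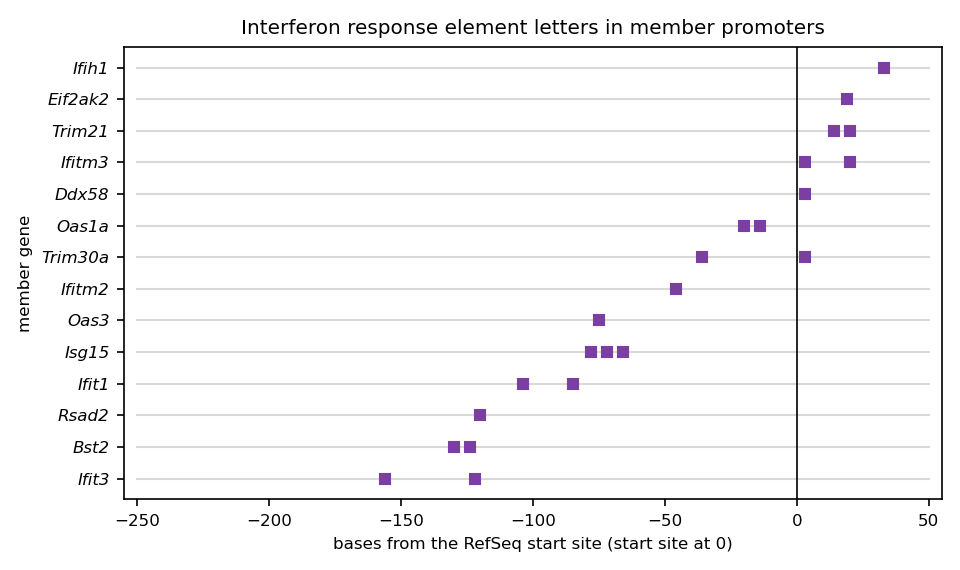
Position of the response element letters, on either strand, in the promoter windows of the 14 members that hold them. The x axis is the distance of the first base of each match from the RefSeq start site of its window, in bases. Each grey line is 1 gene, and each square is 1 match. The Trim30a matches lie in different windows, drawn on the same line. In 9 members a match lies before the start site, and in 5 all matches lie after it.

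As a set, the members stood higher in sIVs libraries 3 and 4 than in PBS, and nearer to PBS in sIVs libraries 2 and 5. In CPM (counts divided by effective library size, with TMM scaling), the median member stood at 0.31, 1.498, 2.24 and 0.22 on the log2 scale relative to the PBS mean in sIVs libraries 2 to 5. The median over all 17725 tested genes was between -0.01 and 0 in each of these libraries, to 2 decimals. Every one of the 39 members was highest in sIVs library 4, and 38 were second highest in sIVs library 3, the exception being Ifi27. More than 2 times the PBS mean was reached by 33 members in sIVs library 3 and 34 in library 4, where 4.96% and 5.13% of tested genes did so. Only Ifi44 passed that level in sIVs library 5 (1.51% of tested genes) and no member did in library 2 (0.592%). In sIVs libraries 2 and 5, 23 and 22 members were above the highest PBS library, against 21.7% and 29.8% of tested genes. In the same 2 libraries, 1 and 7 members were below the lowest PBS library, against 21.2% and 29.1% of tested genes.

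All 39 members had a positive fitted log2 fold change of sIVs over PBS, with a median of 1.33, against a median of -0.01 over all tested genes, 49% of which were positive. By the edgeR quasi-likelihood test 0 members passed an adjusted p of 0.05, as did 0% of all tested genes, and 35 members had an unadjusted p under that level, against 9.61% of tested genes with a higher value. The groups did not overlap, with all 4 sIVs libraries above every PBS library, for 15 of the 39 members and for 4.42% of tested genes. These were Ddx58, Zbp1, Oasl1, Ifit1, Ifit2, Ifit3, Usp18, Ifitm3, Mx2, Rsad2, Parp9, Parp12, Trim25, Ifi35 and Ifi44. No member stood below PBS in all 4, where 3.36% of tested genes did. Which library was included decided the calls: without sIVs library 2, 23 members passed as higher (4.83% of tested genes were higher, 2.56% lower, 7.39% either), and without any other single library 0 did. DESeq2 called 15 members, all higher (2.62% of tested genes were higher, 0.598% lower, 3.22% either). Limma-voom with sample quality weights called 38, all higher (13.1% of tested genes were higher, 13% lower, 26.1% either). EdgeR without the low-count filter called 3, all higher (0.43% of tested genes were higher, 0.0207% lower, 0.45% either). Limma-voom without weights called 0. It put 17 members, and 1421 of the 17725 tested genes, higher at an unadjusted p under 0.05.

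Without sIVs libraries 3 and 4, a setting added with their values known, the median member log2 fold change was 0.25, and 7 members turned negative. Without sIVs library 4 alone, the median was 0.76 and Ifi27 turned negative. Library 5 was above library 2 in 17 of the 39 members. With both sIVs libraries 3 and 4 left out, 0 members passed the test (0.011% of tested genes were higher). In the same setting 15 members still stood above every PBS library in both remaining sIVs libraries, against 11.3% of tested genes. Ifi44, Oasl1, Usp18, Ifit2 and Zbp1 kept log2 fold changes over 0.5 there, at 1.04, 0.95, 0.70, 0.63 and 0.54. The heat map of members by library shows this order of libraries in nearly every row.

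**Figure D2:**
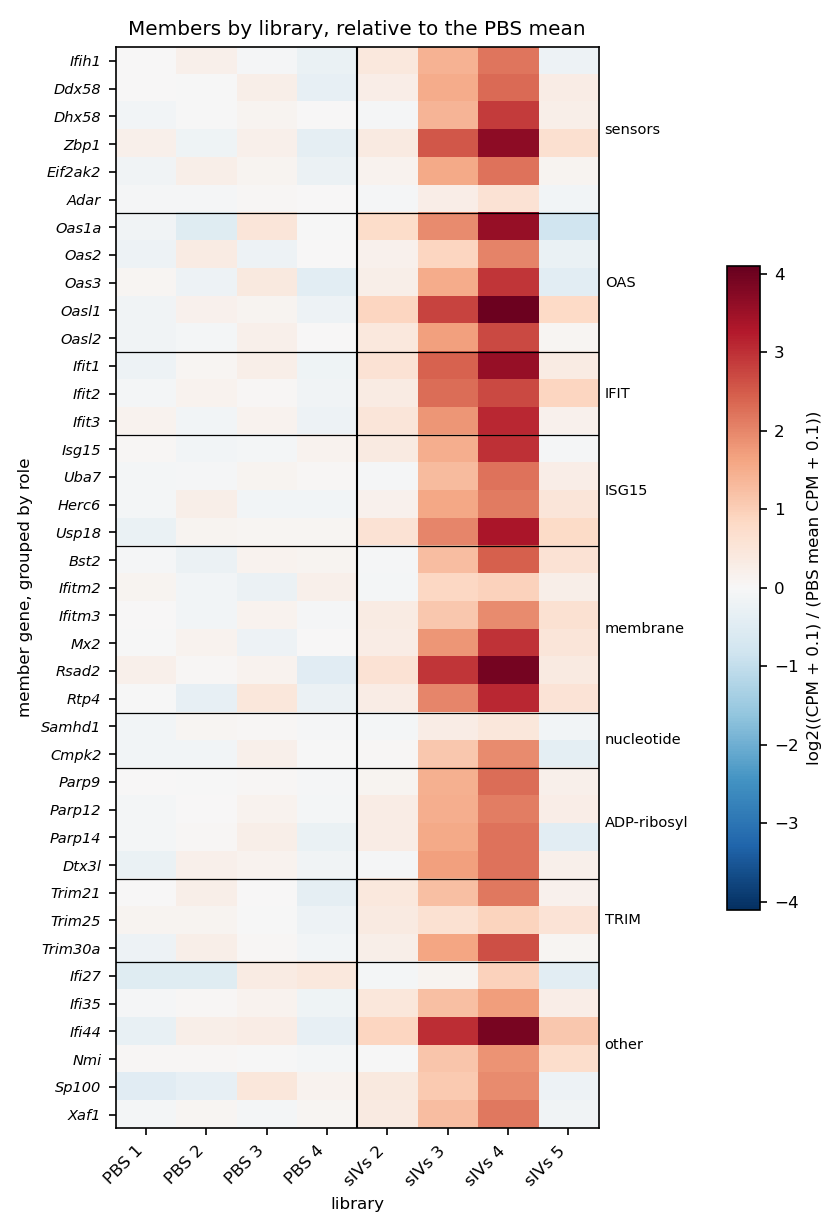
Level of each of the 39 members (rows, grouped by role) in each of the 8 libraries (columns), as log2 of CPM plus 0.1 over the PBS mean plus 0.1; red is above and blue below the PBS mean. sIVs library 4 is the darkest column in every row, library 3 follows in every row but Ifi27, and libraries 2 and 5 are paler.

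Other transcripts moved with the same 2 libraries. Summed rod markers (9 genes) were at 34650, 7775, 7325 and 27690 CPM in sIVs libraries 2 to 5, against 30570 to 37020 CPM in PBS. Summed microglial markers (12 genes) reached 468.6 and 580.9 CPM in sIVs libraries 3 and 4, but 224.5 and 175.3 CPM in libraries 2 and 5, within the PBS range of 174.5 to 290.1 CPM. In libraries 3 and 4, 10 of the 12 genes were above every PBS library, and 0 were so in all 4 sIVs libraries. The other 2, P2ry12 and Siglech, both markers of resting microglia, were below PBS in all 4. P2ry12 stood at 4.08, 5.03, 5.75 and 3.04 CPM in sIVs against 6.05 to 7.73 CPM in PBS. Markers of infiltrating leukocytes (16 genes) summed to 14 CPM in each of these 2 libraries, against 5.55 to 7.29 CPM in PBS. Siglech is in this list too, and without it the other 15 genes summed to 1.47, 13, 12.7 and 5.49 CPM in sIVs libraries 2 to 5, against 1.61 to 2.5 CPM in PBS. Among them, Ccr2, a receptor of circulating monocytes, was at 120 and 106 counts against 1 count in each PBS library, and the B-cell gene Ms4a1 was at 0 in all 8. The T-cell genes Cd3e and Cd3d had at most 5 counts in any library. Endothelial markers (8 genes) summed to 440.6, 774.6, 788.9 and 415.2 CPM in sIVs libraries 2 to 5 and to 448.7 to 494.3 CPM in PBS. Without Kdr, the most abundant, the sums were 214.8, 260.9, 283.3 and 224.6 CPM, against 204 to 223.1 CPM in PBS. Cldn5, Flt1, Kdr and Vwf were above every PBS library in both sIVs libraries 3 and 4, and Pecam1, Cdh5, Tek and Esam were not. Müller glia markers (8 genes) summed to 3496, 3872, 4135 and 2348 CPM in sIVs libraries 2 to 5 and to 4009 to 5227 CPM in PBS. Glul, the glutamine synthetase gene, led this sum. Without Glul, the other 7 genes summed to 1855, 2886, 3042 and 1345 CPM in sIVs libraries 2 to 5, against 2032 to 2508 CPM in PBS. Glul and Abca8a were below PBS in all 4 sIVs libraries, while the other 6 (Rlbp1, Slc1a3, Aqp4, Kcnj10, Dkk3 and Car14) were above every PBS library in sIVs libraries 3 and 4. The part of these cell types in the levels of the members was not tested, and in whole retina fewer cells of a type and less RNA per cell cannot be told apart.

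In PBS the members differed widely in level. By FPKM (fragments scaled to transcript length and sequencing depth, which allows comparison between genes), Ifitm3 was highest at 52.1 ± 3.87 (SD, n = 4), followed by Bst2 at 19.2 ± 2.19, Ifit3 at 17.1 ± 2.21 and Adar at 14.2 ± 0.397. Bst2 and Ifit3 differed by less than their spread. Of the 39 members, 9 were under 1 FPKM. The lowest were Ifi44 at 0.237 ± 0.0588, Oasl1 at 0.192 ± 0.0289 and Oas3 at 0.0852 ± 0.0251 FPKM, the last from 6 to 12 counts per library. In sIVs library 4 the order at the top was Ifitm3, Ifit3, Bst2, Isg15 and Ifit1, and Adar had moved from the fourth place to the tenth. The plot of transcript levels shows 16 members in all libraries.

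**Figure D3:**
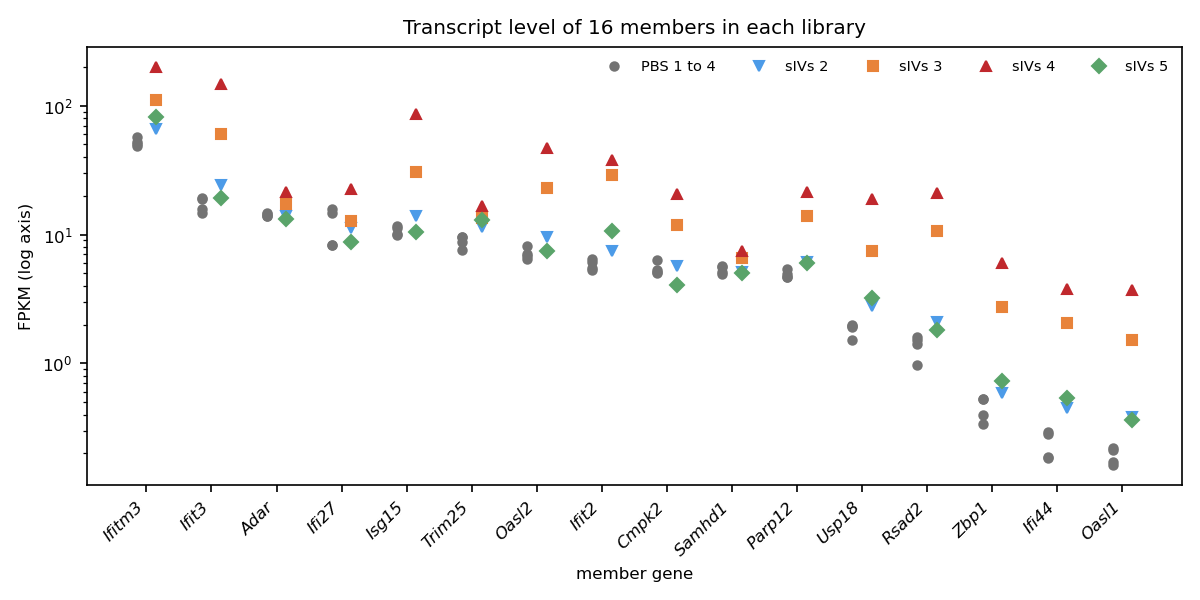
FPKM on a log axis of the 16 fully described members, ordered by their PBS mean; grey circles are PBS libraries 1 to 4 and coloured symbols are sIVs libraries 2 to 5. The sIVs 4 triangle is the top symbol for all 16 genes, and the circles of Adar, Samhd1 and Ifi27 lie close to most sIVs symbols.

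Gene coordinates below are those of the deposited tables, for which the submitters' processing notes name mm10. Cytosolic sensors detect foreign nucleic acid and include genes that limit that sensing. Zbp1, a sensor of left-handed nucleic acid that can trigger necroptosis (ENSMUSG00000027514, chromosome 2, 173206612 to 173218923), stood at 1.87, 1.41, 1.87 and 1.21 CPM in PBS libraries 1 to 4 and at 2.08, 9.69, 21.4 and 2.56 CPM in sIVs libraries 2 to 5. Every sIVs library lay above every PBS library, libraries 2 and 5 by a small margin. Its log2 fold change was 2.49 ± 0.70 (SE; adjusted p by edgeR = 0.185), the largest of the 6 sensors, and 1.58 without sIVs library 4.

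Adar encodes an enzyme that edits adenosine in double-stranded RNA and so keeps the cell's own RNA from being sensed (ENSMUSG00000027951, chromosome 3, 89715022 to 89753446). It was the most abundant sensor-group member by FPKM. It stood at 113, 113, 119 and 118 CPM in the PBS group and at 112, 141, 173 and 108 CPM in sIVs. Libraries 3 and 4 were above and libraries 2 and 5 below every PBS library. The log2 fold change was 0.21 ± 0.14 (SE; adjusted p by edgeR = 0.501) and turned to -0.073 without sIVs libraries 3 and 4. Adar overlaps Chrnb2 on the opposite strand, which had a mean of 1336 counts per library against 1972 for Adar, and the sources used here do not give the strand setting of the counting.

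The helicase sensors followed the order of libraries seen across the set. Ddx58, which encodes the RNA sensor RIG-I, had a PBS range of 12.7 to 19.2 CPM and stood at 19.6, 46.1, 81.4 and 19.8 CPM in sIVs libraries 2 to 5, above PBS in each. Ifih1, which encodes the long-RNA sensor MDA5, ranged from 9.89 to 13.8 CPM in PBS and stood at 16.1, 31.9, 54.6 and 10.2 CPM in sIVs, with library 5 inside the PBS range. Dhx58, their regulator LGP2, was at 4.02, 11, 31.1 and 4.95 CPM against 3.86 to 4.51 in PBS. Eif2ak2, the kinase PKR that halts translation on double-stranded RNA, was at 17.7, 48.2, 77 and 17.6 CPM against 13.6 to 19.1 in PBS. Libraries 2 and 5 of Eif2ak2 lay inside the PBS range, and library 2 of Dhx58 did too. The log2 fold changes of these 4 genes ran from 1.25 for Ifih1 to 1.62 for Dhx58 (edgeR adjusted p = 0.207 to 0.253).

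Oligoadenylate synthetases make a short nucleotide chain that switches on RNase L, which cuts RNA. OASL proteins of this family can tune sensing and translation. Oasl1, known for holding back translation of Irf7 (ENSMUSG00000041827, chromosome 5, 114923240 to 114937915), had the largest fold change of all members. It stood at 0.451, 0.577, 0.555 and 0.427 CPM in PBS, from 6 to 9 counts per library, and at 1.00, 3.98, 9.67 and 0.955 CPM in sIVs. All 4 sIVs libraries were above PBS, with libraries 3 and 4 well apart from 2 and 5. The log2 fold change was 2.95 ± 0.78 (SE; adjusted p by edgeR = 0.178), and 1.96 without sIVs library 4. Its neighbour Oasl2 (ENSMUSG00000029561, chromosome 5, 114896936 to 114912234), the most abundant of the family, stood at 41.1, 43.5, 52.3 and 45.7 CPM in the PBS group and at 61.1, 146, 299 and 47.7 CPM in sIVs. Library 5 lay inside the PBS range of Oasl2, and the log2 fold change was 1.60 ± 0.50 (SE; adjusted p by edgeR = 0.208).

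Oas1a, Oas2 and Oas3 were all below the PBS mean in sIVs library 5. Oas1a stood at 1.72, 3.96, 12.4 and 0.552 times the mean of PBS in libraries 2 to 5 of the sIVs group, the steepest step between libraries 3 and 4 among the members. Oas2 stood at 1.14, 1.89, 4.22 and 0.82 times and Oas3 at 1.22, 3.19, 8.78 and 0.691 times the PBS mean. The oligoadenylate family had the lowest role median in sIVs library 5, -0.27 on the log2 scale, and a median of 2.94 in library 4. Log2 fold changes were 2.23 for Oas1a, 1.02 for Oas2 and 1.80 for Oas3 (edgeR adjusted p = 0.249, 0.34 and 0.29). Oas1a has close relatives, among them Oas1g and Oas1b, so its reads may be split. Oas2 and Oas3 turned to -0.036 and -0.082 without sIVs libraries 3 and 4.

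IFIT proteins bind viral RNA and block its translation, and the 3 members lie within 100 kilobases of each other on chromosome 19. They were the 1 role group in which all members stood above PBS in all 4 sIVs libraries. Ifit2 (ENSMUSG00000045932, chromosome 19, 34550694 to 34576419) stood at 21.7, 25.3, 24 and 21.1 CPM in the PBS group and at 29, 114, 150.2 and 42.2 CPM in sIVs. Ifit3 (ENSMUSG00000074896, chromosome 19, 34583531 to 34588731) stood at 33, 27.4, 33.3 and 25.9 CPM in the PBS group and at 42.5, 105, 256 and 33.5 CPM in sIVs. Ifit1, which recognises RNA lacking the cap methylation of host mRNA, stood at 13.1, 16.2, 18.1 and 13.4 CPM in the PBS group and at 23, 81.4, 183 and 19 CPM in sIVs. The 3 neighbours did not keep the same proportions: in sIVs library 5, Ifit2 was at 1.83 times the PBS mean, Ifit1 at 1.25 and Ifit3 at 1.12 times, the last just above the highest PBS library. From sIVs library 3 to library 4, Ifit3 went from 105 to 256 CPM and Ifit1 from 81.4 to 183 CPM, while Ifit2 went from 114.1 to 150.2 CPM. Log2 fold changes were 2.33 ± 0.65 for Ifit1, 1.87 ± 0.45 for Ifit2 and 1.87 ± 0.56 for Ifit3 (SE; adjusted p by edgeR = 0.184, 0.168 and 0.198). Ifit3 has a near-identical copy, Ifit3b, whose reads may be split with it.

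ISG15 is a ubiquitin-like protein that is joined to other proteins by the enzymes UBA7 and HERC6 and removed by USP18, which also dampens the interferon receptor. Isg15 (ENSMUSG00000035692, chromosome 4, 156199424 to 156200818) stood at 8.43, 7.5, 7.63 and 8.89 CPM in the PBS group and at 10.4, 23.1, 65.7 and 7.88 CPM in sIVs. Library 4 stood apart at 8.09 times the PBS mean, and library 5 lay inside the PBS range. The log2 fold change was 1.73 ± 0.59 (SE; adjusted p by edgeR = 0.24), and 0.77 without sIVs library 4. Usp18 (ENSMUSG00000030107, chromosome 6, 121245906 to 121270917) stood at 4.25, 5.52, 5.41 and 5.41 CPM in the PBS group and at 7.77, 20.7, 53.1 and 9.01 CPM in sIVs, above PBS in all 4 libraries. Its log2 fold change was 2.14 ± 0.56 (SE; adjusted p by edgeR = 0.178). In sIVs library 5 the protease gene was at 1.75 and the modifier gene at 0.97 times the PBS mean. Uba7, the activating enzyme, ranged from 5.79 to 6.66 CPM in PBS and stood at 5.96, 15.5, 29.5 and 7.52 CPM in sIVs. Herc6, the ligase, ranged from 7.22 to 9.36 CPM in PBS and stood at 8.9, 23.8, 34.9 and 11.2 CPM in sIVs, with library 2 inside the PBS range. Their log2 fold changes were 1.24 and 1.33 (edgeR adjusted p = 0.25 and 0.193).

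The membrane-associated group includes proteins that block virus entry, membrane fusion or budding. Ifitm3, which traps viruses in endosomes (ENSMUSG00000025492, chromosome 7, 141009586 to 141010770), stood at 35.5, 32.9, 38.9 and 34.4 CPM in the PBS group and at 44.6, 75.8, 136 and 55.2 CPM in sIVs. All 4 sIVs libraries lay above PBS, library 5 above library 2. Its log2 fold change was 1.14 ± 0.30 (SE; adjusted p by edgeR = 0.177), and 0.49 without sIVs libraries 3 and 4. Rsad2, which encodes viperin, a maker of a chain-terminating nucleotide (ENSMUSG00000020641, chromosome 12, 26442746 to 26456452), stood at 6.89, 6.16, 6.59 and 4.27 CPM in the PBS group and at 9.04, 46, 91.6 and 7.82 CPM in sIVs. It was above PBS in all 4 sIVs libraries and had the third largest fold change of the set, 2.69 ± 0.73 on the log2 scale (SE; adjusted p by edgeR = 0.182).

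The other 4 membrane-group genes differed in sIVs libraries 2 and 5. Bst2, the tetherin that holds budding virus on the cell surface, stood at 16.8, 14.9, 19.2 and 18.8 CPM in the PBS group and at 16.8, 41.6, 96 and 26.3 CPM in sIVs, so that library 5 but not library 2 lay above PBS. Ifitm2, 53599 bases from Ifitm3, was at 0.94, 1.82, 1.95 and 1.17 times the mean of PBS in libraries 2 to 5 of the sIVs group. It had the smallest ratio of library 4 to library 3 among the members, 1.07, where the median member had 1.83 and Oas1a 3.13. Rtp4, a chaperone of membrane receptors, was at 1.25, 4.11, 8.75 and 1.49 times the PBS mean. Mx2, a dynamin-like gene that the deposited table lists as a polymorphic pseudogene, was at 1.25, 3.57, 8.05 and 1.43 times the PBS mean and above PBS in all 4 libraries. Log2 fold changes were 1.38 for Bst2, 0.56 for Ifitm2, 1.97 for Rtp4 and 1.84 for Mx2 (edgeR adjusted p = 0.226, 0.319, 0.194 and 0.198).

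A pair of members acts on nucleotides: SAMHD1 breaks down deoxynucleotides, which starves DNA synthesis, and CMPK2 is a mitochondrial nucleotide kinase. Samhd1 (ENSMUSG00000027639, chromosome 2, 157097533 to 157135265) stood at 45.4, 52.4, 51 and 47.5 CPM in the PBS group and at 46.6, 60.5, 67.9 and 45.8 CPM in sIVs. Only libraries 3 and 4 were above PBS, and its log2 fold change was the smallest of the set, 0.17 ± 0.13 (SE; adjusted p by edgeR = 0.555). Cmpk2 (ENSMUSG00000020638, chromosome 12, 26469204 to 26479837) stood at 21.2, 20.9, 26.4 and 22.3 CPM in the PBS group and at 23.5, 49.2, 86.3 and 17 CPM in sIVs. Library 5 of Cmpk2 lay below every PBS library, and the log2 fold change was 0.96 ± 0.43 (SE; adjusted p by edgeR = 0.326). Without sIVs libraries 3 and 4 both turned negative, to -0.088 and -0.17. The pair Cmpk2 and Rsad2 is read in opposite directions from ends that lie 12752 bases apart. Rsad2 had the larger ratio to PBS in each of the 4 sIVs libraries: 1.51, 7.69, 15.3 and 1.31 against 1.04, 2.17, 3.8 and 0.75.

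ADP-ribosyltransferases of the PARP family attach ADP-ribose to proteins, and DTX3L is a ubiquitin ligase that partners PARP9. Parp12 (ENSMUSG00000038507, chromosome 6, 39086410 to 39118349), which represses translation, stood at 18.9, 19.8, 21.7 and 18.9 CPM in the PBS group and at 24.2, 55.5, 85.1 and 23.9 CPM in sIVs. All 4 sIVs libraries were above PBS, and the log2 fold change was 1.25 ± 0.37 (SE; adjusted p by edgeR = 0.196). Parp9, Dtx3l and Parp14 lie together on chromosome 16. Parp9 was at 1.09, 2.77, 4.97 and 1.16 and Dtx3l at 0.977, 3.21, 4.75 and 1.15 times the mean of PBS in libraries 2 to 5 of the sIVs group. These genes overlap at their starts on opposite strands, and how reads in the overlap were assigned was not tested. Parp14, a partner of STAT6 signalling in the same cluster, was at 1.23, 2.94, 4.75 and 0.738 times the PBS mean, below every PBS library in library 5. Log2 fold changes of these 3 genes ran from 1.27 to 1.34 (edgeR adjusted p = 0.226 to 0.273), and Parp14 turned to -0.027 without sIVs libraries 3 and 4.

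TRIM proteins are ubiquitin ligases. Trim25, which promotes RIG-I signalling (ENSMUSG00000000275, chromosome 11, 88999376 to 89020293), had the smallest p in the set. It stood at 55, 55.2, 50.05 and 44.1 CPM in the PBS group and at 66.2, 78.3, 96.8 and 74.9 CPM in sIVs and was above PBS in all 4 libraries. The log2 fold change was 0.63 ± 0.12 (SE; adjusted p by edgeR = 0.148), 0.52 without sIVs library 4 and 0.46 without libraries 3 and 4. Trim21, a cytosolic antibody receptor, was at 1.34, 2.35, 4.56 and 1.12 times the PBS mean, and Trim30a at 1.19, 3.08, 6.3 and 1.06 times. Both lay inside their PBS range in sIVs library 5, and their log2 fold changes were 1.23 and 1.54 (edgeR adjusted p = 0.226 and 0.231). Trim30a has close relatives in its cluster, so its reads may be split.

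The remaining 6 members include nuclear and mitochondrial proteins. Ifi44 (ENSMUSG00000028037, chromosome 3, 151730922 to 151749960), stood at 1.16, 1.73, 1.8 and 1.14 CPM in the PBS group and at 2.75, 12.6, 23 and 3.28 CPM in sIVs. It was the 1 member above 2 times the PBS mean in library 5, and its log2 fold change was 2.83 ± 0.67 (SE; adjusted p by edgeR = 0.167). Ifi27, which encodes a small mitochondrial membrane protein (ENSMUSG00000064215, chromosome 12, 103434211 to 103440239), stood at 12.2, 12.2, 21.7 and 23.2 CPM in the PBS group and at 16.5, 18.7, 33.2 and 12.8 CPM in sIVs. Its PBS libraries split into 2 low and 2 high, and only library 4 was above their range. The log2 fold change of Ifi27 was 0.23 ± 0.32 (SE; adjusted p by edgeR = 0.755), and it turned to -0.11 without sIVs library 4.

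Nmi and its partner Ifi35 encode interferon-induced proteins that bind each other. Nmi was at 0.991, 2.25, 3.66 and 1.65 times the mean of PBS in libraries 2 to 5 of the sIVs group and Ifi35 at 1.38, 2.35, 3.3 and 1.22 times. Nmi was nearer PBS in library 2 and Ifi35 in library 5. Sp100, a scaffold of nuclear bodies, was at 1.32, 2.15, 3.93 and 0.87 times the PBS mean, and Xaf1, a binder of the apoptosis inhibitor XIAP, at 1.28, 2.41, 4.55 and 0.903 times. Log2 fold changes were 1.10 for Nmi, 1.05 for Ifi35, 1.05 for Sp100 and 1.196 for Xaf1 (edgeR adjusted p = 0.205, 0.185, 0.300 and 0.253). The plot of fold changes sets all members side by side.

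**Figure D4:**
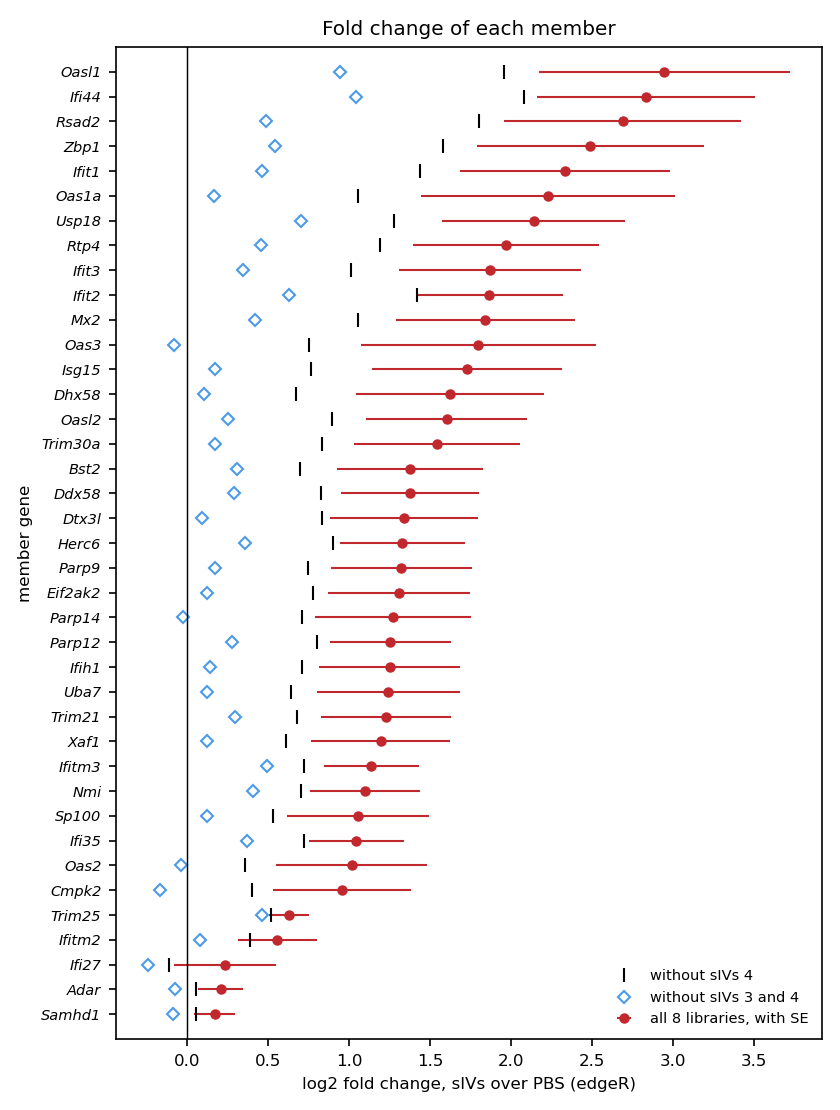
Log2 fold change of sIVs over PBS (x axis) for each of the 39 members (y axis): red points with SE bars use all 8 libraries, black ticks leave out sIVs library 4, and open blue diamonds leave out sIVs libraries 3 and 4. All red points are above 0; the diamonds lie between -0.24 for Ifi27 and 1.04 for Ifi44.

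Upstream of the members, interferon ligands were hardly measured. Of 21 ligand genes, 13 had 0 counts in all 8 libraries, none passed the low-count filter, and the largest value was 5 counts, of Ifnz in sIVs library 5. Ifnb1, the interferon beta gene, had 1 count in sIVs library 3, 4 counts in library 4 and 0 in the other 6 libraries, where 0 counts allow up to 3 counts, or 0.177 to 0.205 CPM, by counting error only. Ifng, the interferon gamma gene, had 1 count in PBS library 3 and 0 elsewhere. A difference in ligand transcripts was therefore not detectable at this depth.

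Of the other pathway genes, 35 were tested and 0 passed the edgeR test, as did 0% of all genes. Without sIVs library 2, 11 passed as higher (4.83% of tested genes). With all libraries, 11 stood above PBS in all 4 sIVs libraries (4.42% of tested genes) and Pias1, an inhibitor of STAT signalling, below (3.36%). Among 6 receptor genes, Ifnar1, a chain of the type I receptor, stood at 67.7, 71.2, 75.8 and 66.1 CPM in PBS and 72.2, 72.3, 67.5 and 65.8 CPM in sIVs, within the PBS range but for library 5, just below it. Il10rb, a chain of the interferon lambda receptor, had the smallest p of the receptors and stood at 4.7, 5.32, 4.79 and 4.34 CPM in PBS and 6.36, 9.2, 7.13 and 6.03 CPM in sIVs (log2 fold change 0.58 ± 0.17 SE; adjusted p by edgeR = 0.193).

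Irf9 and Stat2, whose proteins are subunits of the factor that binds the response element, were above PBS in all 4 sIVs libraries, while the kinases were not. Irf9 stood at 41.4, 47.9, 43.5 and 34.3 CPM in the PBS group and at 61.7, 95.3, 147 and 87 CPM in sIVs. Stat2 stood at 60.7, 64.8, 56.2 and 55.6 CPM in the PBS group and at 70.4, 129.7, 174 and 96.2 CPM in sIVs. In both, library 5 lay above library 2. Log2 fold changes were 1.23 ± 0.23 for Irf9 and 0.99 ± 0.23 for Stat2 (SE; adjusted p by edgeR = 0.143 and 0.167), and 0.83 and 0.49 without sIVs libraries 3 and 4. The kinase genes Jak1, Jak2 and Tyk2 had log2 fold changes of 0.048 ± 0.083, 0.11 ± 0.069 and 0.052 ± 0.087 (SE; adjusted p by edgeR = 0.818, 0.493 and 0.809).

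Among 6 further interferon regulatory factor genes, Irf1 had the smallest p, at 14.6, 13.9, 10.5 and 11.4 CPM in PBS and 17.6, 39, 50.4 and 21.4 CPM in sIVs. Irf7, which amplifies type I interferon production and is itself induced, stood at 20.2, 19.8, 33 and 30.9 CPM in the PBS group and at 30.9, 53.4, 123 and 37 CPM in sIVs. Library 2 of Irf7 lay inside the PBS range, and its log2 fold change was 1.24 ± 0.41 (SE; adjusted p by edgeR = 0.227). Irf3, which starts interferon transcription and is not itself induced, was at 57.5, 57.6, 57.9 and 59.8 CPM in the PBS group and at 65.6, 45.1, 43.5 and 68.4 CPM in sIVs, lower than PBS in libraries 3 and 4 and higher in 2 and 5. Of 12 sensing and adaptor genes, 11 were tested, and Myd88, the adaptor of most Toll-like receptors, had the smallest p (log2 fold change 0.79 ± 0.17 SE; adjusted p by edgeR = 0.158). Mavs, the adaptor of RIG-I and MDA5, had a log2 fold change of -0.082 ± 0.10 (SE; adjusted p by edgeR = 0.73).

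Of 6 negative regulators, Socs3 had the smallest p. It stood at 39.9, 38.2, 14.2 and 9.46 CPM in the PBS group and at 54.8, 90.7, 91.2 and 102 CPM in sIVs, with a log2 fold change of 1.73 ± 0.42 (SE; adjusted p by edgeR = 0.167). Its order differed from the members: sIVs library 5 was highest, and PBS libraries 1 and 2 stood above 3 and 4. Socs1, the interferon-induced inhibitor of JAK kinases, ranged from 0.555 to 1.87 CPM in PBS and stood at 1.27, 4.04, 4.7 and 1.67 CPM in sIVs. Libraries 4 and 3 were highest, as in the members, and libraries 5 and 2 lay inside the PBS range.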

How the data were processed

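Poly(A)-selected RNA of rd10 retina was sequenced as strand-marked paired-end libraries, per the labels' protocols. The deposited count table holds whole-number gene counts, and the deposited FPKM table the same genes, each FPKM equal to the count over length and library total, times 1 constant per library (0.93 to 1.03, within 4.32e-06%). The submitters' processing notes name mm10, while aligner, counter and strand setting are not given in the sources used here. Members were matched by symbol, with no symbol found more than once. Counts were filtered by filterByExpr, scaled by TMM and tested with edgeR 4.0.16 (glmQLFit, glmQLFTest, group only, Benjamini-Hochberg over 17725 genes, threshold 0.05) in R 4.3.3. SE came from the F statistic. Library totals ran from 14640235 to 16989737 counts. The tests were checked on simulated counts.

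Alternatives were DESeq2 1.42.0, limma 3.58.1 voom with and without quality weights, limma on log2(FPKM + 0.1) and log2(FPKM + 1), other scalings, no filter, each library left out, blocks by replicate number and, added, sIVs libraries 3 and 4 left out. Fully described members are, per role group, those of largest mean FPKM and smallest p, plus the 3 largest and 3 smallest absolute fold changes; pathway genes are the smallest p per role plus Stat2, Irf9, Irf7 and Ifnb1, and the other pathway genes named were chosen after their values were seen. The members and lists were chosen with earlier results of these data known. No 2 libraries agreed within sampling noise (lowest chi-square per gene 3.65, PBS library 1 and sIVs library 2). Promoter windows come from RefSeq. Values of 1 pathway gene are not reported here.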

Additional observations from a re-analysis of the deposited data

Results flagged for a closer look

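Of 78 groups of 4 libraries (39 members, 2 groups each), 2 held a library whose gap to its nearest neighbour took more than 0.829 of the group's range, a level that chance reaches in about 5% of groups. Herc6, the ISG15 ligase gene, stood at 9.36 CPM in PBS library 2, with the next highest PBS library at 7.47 CPM (gap 0.884 of the range). Usp18, the ISG15 protease gene, stood at 4.25 CPM in PBS library 1, with the next lowest PBS library at 5.41 CPM (gap 0.914 of the range). In sIVs no member had a library set apart by this measure.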

How the results depend on the processing

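Against 0 calls in the main test, DESeq2 called 571 genes, 15 of them members and 9 pathway genes; limma-voom with sample quality weights called 4628, 38 and 26; edgeR with no low-count filter called 152, 3 and 6. Leaving out 1 library at a time gave 0 to 1331 genes, 0 to 23 members and 0 to 11 pathway genes, the upper values all without sIVs library 2. The cause was not tested. Without sIVs libraries 3 and 4, chosen after seeing the data, 3 genes were called and the median member log2 fold change was 0.25, against 1.33; leaving out 1 library at a time it ran from 0.76 (without sIVs library 4) to 1.57 (without sIVs library 2). The count of members above PBS in every sIVs library ran from 15 to 23, the latter without sIVs library 5, where fewer libraries have to pass. Of all tested genes, 4.42% stood above PBS in this way with all libraries and 6.39% without sIVs library 5. Without sIVs library 2, 22 members and 11.3% of tested genes did.

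Members that changed sign did so without sIVs libraries 3 and 4, at -0.073 for Adar, -0.036 for Oas2, -0.082 for Oas3, -0.088 for Samhd1, -0.17 for Cmpk2, -0.027 for Parp14 and -0.24 for Ifi27, and Ifi27 ran from -0.11 without sIVs library 4 to 0.41 without PBS library 4. Limma-voom, RLE factors, library totals and both FPKM scales gave 0 calls and kept every member's sign. Scaling by library totals moved the median of all genes to 0.07.

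Same-numbered libraries did not deviate together (correlations from -0.0585 to 0.0681 for the title numbers and from -0.0707 to 0.119 for the description numbers). Of the sIVs libraries, 1 of 3 and 2 of 4 correlated best with their own number. With a replicate block 0 genes, 0 members and 0 pathway genes were called, and the member median was 1.335 by title and 1.08 by description number.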

Other observations

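Close relatives of the members, named after the data were seen, were counted in the same table, and reads may be split between them and the members. Mx1, the relative of Mx2, had 16, 17, 23 and 6 counts in PBS libraries 1 to 4 and 21, 139, 268 and 16 counts in sIVs libraries 2 to 5. Ifit3b, the copy of Ifit3, had 193, 178, 211 and 185 counts in PBS and 231, 469, 1418 and 225 counts in sIVs. Trim30d, a neighbour of Trim30a, had 71, 56, 71 and 46 counts in PBS and 58, 189, 329 and 45 in sIVs. In these 3 relatives library 4 was highest and library 3 second. Ifi27l2a, a relative of Ifi27, had 25, 35, 42 and 29 counts in PBS and 58, 47, 144 and 29 counts in sIVs, so that library 4 was highest and library 2 second.

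Ifitm1, a relative of Ifitm3, had 62, 45, 53 and 32 counts in PBS libraries 1 to 4 and 85, 263, 125 and 232 counts in sIVs libraries 2 to 5, so that libraries 3 and 5 were highest and library 4 was lower than both. The myeloid genes S100a8 and S100a9 were highest in sIVs library 5, at 22 and 28 counts, against at most 2 counts in any PBS library. They were at 10 and 9 counts in sIVs library 3, 9 and 6 in library 4 and 0 in library 2. Siglech, a marker of resting microglia, was lower in all 4 sIVs libraries than in PBS, at 3.42, 1.06, 1.27 and 1.49 CPM against 3.77 to 5.14 CPM.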
